A study of Mus musculus with 7 samples.

Results

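The adipocyte genes described here are Adipoq, Cfd, Lep, Plin1, Plin4, Cidec, Ucp1, Lipe, Fabp4 and Pparg, 10 of the 24328 gene symbols measured by RNA sequencing in kidneys of LBR-null and WT mice. They were chosen by symbol, and all 10 passed the filter on low values. LBR (lamin B receptor) is a protein of the inner nuclear membrane that holds heterochromatin at the nuclear edge. The LBR-null mice were homozygous for Lbric-J (Lbric-J/ic-J), a germline loss-of-function allele that is carried by every tissue, and the WT mouse was an Lbr+/+ littermate. All mice were on the C57BL/6J background and 4 weeks old, and the labels give no sex. LBR-null mice 4001 and 4007 and WT mouse 4009 gave 2 libraries each, and LBR-null mouse 4002 gave 1, all of polyadenylated RNA from powdered right kidney. Libraries of a mouse were averaged, so 3 LBR-null mice were compared with 1 WT mouse, and what belongs to the genotype and what belongs to that WT mouse cannot be told apart. No source used here says whether the fat around the kidney was removed before freezing. Values are normalized counts, that is, reads on a gene divided by a scaling factor of the library; 1 read was worth 0.787 to 1.15 normalized counts, and the libraries held 20694016 to 26333284 reads.

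White adipocytes store triglyceride in a single large lipid droplet coated by perilipin 1 and release hormones such as adiponectin and leptin. Brown adipocytes hold many small droplets and burn fatty acids through the uncoupling protein UCP1 of the mitochondrial inner membrane. Both kinds depend on the nuclear receptor PPARγ, which binds DNA with a retinoid X receptor partner and drives most genes of the adipocyte program. Fat surrounds the mouse kidney and adrenal gland, and part of it is brown in young animals. Several of these genes are also used outside fat: Fabp4 by capillary endothelium and macrophages, and Plin4 and Lipe by muscle.

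Mouse 4001 stood apart from the other LBR-null mice, so its values are given separately and calls are also given without it. Its Xist level, the X-inactivation RNA of female cells, was 5785 normalized counts and its level of the Y-linked gene Ddx3y was 141. Mouse 4007 had 9940 and 44.3 for the same genes, mouse 4002 had 65.3 and 1516, and the WT mouse had 35.5 and 1284. The LBR-null mouse with Xist and Ddx3y levels nearest to those of the WT mouse was thus 4002. Lbr itself was at 322, 340 and 471 normalized counts in mice 4001, 4002 and 4007 and at 398 in the WT mouse, so its RNA level does not check the genotype. The kidney genes were present in every library: summed over 13 genes they reached 195850 to 421384 normalized counts in the LBR-null libraries and 643118 to 662469 in the WT libraries.

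The start sites of the members differed in CpG content. The study sorted genes by CpG islands (stretches rich in CpG), which it took from sequence criteria together with measured CxxC-affinity regions. The counts of CpG given here are a different measure and do not give its gene classes. RefSeq promoters (GRCm38.p6) were matched for 9 of the 10 members, with 13 start sites in all, and Fabp4 was not matched. In the 250 bases before the start site the promoters of Adipoq, Plin1 and Cfd held 0, 1 and 2 CpG, those of Cidec 6 and 4, and that of Ucp1 12. Plin4 had 6, Lep 16, Lipe 1 and 18, and Pparg 38, 12 and 2. The median over the 32851 promoters of the table was 6, and 29.0% of them held at most 2. The sequences of 5 members whose LBR-null and WT libraries did not overlap and that have 1 start site are printed here, 5′ to 3′ on the gene's strand with CpG in capitals, to show how these promoters differ; the first 4 genes were lower and Plin4 was higher in LBR-null kidney.
Adipoq (chr16:23146286-23146535, plus strand): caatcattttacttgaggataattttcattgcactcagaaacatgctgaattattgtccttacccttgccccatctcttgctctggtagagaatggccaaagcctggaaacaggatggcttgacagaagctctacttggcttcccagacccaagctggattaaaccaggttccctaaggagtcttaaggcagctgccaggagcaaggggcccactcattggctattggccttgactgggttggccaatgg
Cfd (chr10:79890603-79890852, plus strand): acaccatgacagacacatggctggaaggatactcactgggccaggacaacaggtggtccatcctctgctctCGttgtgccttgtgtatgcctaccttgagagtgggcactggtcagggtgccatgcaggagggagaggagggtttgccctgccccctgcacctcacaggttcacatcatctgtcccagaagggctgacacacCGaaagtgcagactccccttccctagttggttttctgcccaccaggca
Plin1 (chr7:79732777-79733026, minus strand): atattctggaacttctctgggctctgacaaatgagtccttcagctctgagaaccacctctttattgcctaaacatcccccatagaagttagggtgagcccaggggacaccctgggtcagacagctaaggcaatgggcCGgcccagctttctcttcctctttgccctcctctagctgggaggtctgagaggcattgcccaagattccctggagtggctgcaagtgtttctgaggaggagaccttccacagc
Ucp1 (chr8:83290098-83290347, plus strand): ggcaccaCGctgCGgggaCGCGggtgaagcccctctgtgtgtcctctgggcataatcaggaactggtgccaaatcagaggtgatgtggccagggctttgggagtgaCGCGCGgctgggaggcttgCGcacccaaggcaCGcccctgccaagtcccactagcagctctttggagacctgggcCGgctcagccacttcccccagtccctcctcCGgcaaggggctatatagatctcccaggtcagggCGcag
Plin4 (chr17:56109783-56110032, minus strand): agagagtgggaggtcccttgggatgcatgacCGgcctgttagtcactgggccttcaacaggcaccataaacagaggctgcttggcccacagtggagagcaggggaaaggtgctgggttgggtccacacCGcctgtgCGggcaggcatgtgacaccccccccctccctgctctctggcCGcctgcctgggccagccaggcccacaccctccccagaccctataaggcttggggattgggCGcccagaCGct

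Of the motifs searched on both strands of these windows, the direct repeat bound by PPARγ with its partner (2 copies of AGGNCA with 1 base between) had no match at the 13 start sites and matched 0.338% of all promoters. The single half-site AGGTCA, which is contained in some of those repeats, matched 3 start sites of 2 members, Pparg and Ucp1, against 14.0% of all promoters. The C/EBP motif TTGCNNAA matched 4 start sites of 4 members, Cidec, Lep, Plin1 and Pparg, against 9.56% of all promoters. The TATA letters TATAAA matched 1 start site, of Pparg, against 12.4% of all. These are matches of letters in short windows.

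Among these genes 5 were 7.34 to 15.2 times lower in LBR-null than in WT kidney by mean normalized count (Adipoq, Cfd, Plin1, Cidec and Ucp1), Plin4 was 5.53 times higher, and the libraries of the genotypes overlapped for Fabp4, Lep, Pparg and Lipe. Without mouse 4001 the WT level was 23.1 (Adipoq), 30.6 (Cfd), 17.4 (Plin1), 13.4 (Cidec) and 35.1 (Ucp1) times the LBR-null mean, and the LBR-null mean of Plin4 was 4.76 times the WT level. None passed the main test, limma with an adjusted p under 0.05 and a 2-fold change, which called 0% of 17283 genes. The comparison asks whether kidneys without LBR differ in the RNA of a cell type that lies outside the nephron, since the study examined genes that a tissue does not normally use.

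The members are described by role, starting with the secreted products. Adipoq (adiponectin, an insulin-sensitizing hormone made by adipocytes; mm9 chr16:23146609-23158101, plus strand) was at 29.9 and 29.3 normalized counts in mouse 4001, 2.58 in mouse 4002, and 7.45 and 8.20 in mouse 4007. The WT libraries had 127.6 and 113.1. Every LBR-null library lay below both WT libraries, and the mean was 13.3 ± 14.3 (SD, n = 3 mice) against 120.3, a WT level 9.03 times higher. The log2 fold change was -3.62 (SE 1.11; limma, adjusted p = 0.161). The value of mouse 4002 rests on 3 reads, which gives 2.13% of the WT level from summed reads with a 95% exact interval of 0.438% to 6.30% that covers counting error only.

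Cfd (complement factor D, or adipsin, a serine protease of the alternative complement pathway and a major product of mouse adipocytes; chr10:79353598-79355401, plus strand) was at 176.8 and 160.6 normalized counts in mouse 4001, 26.7 in mouse 4002, and 41.0 and 38.3 in mouse 4007, against 1000.1 and 1030.4 in the WT libraries. The groups did not overlap, and mouse 4001 was again the highest of the LBR-null mice. The means were 78.3 ± 78.5 (SD, n = 3) and 1015, a 13.0-fold higher WT level, and the log2 fold change was -4.14 (SE 0.95; limma, adjusted p = 0.114). Lep (leptin, the satiety hormone; chr6:29010220-29023877, plus strand) was low throughout, at 5.59 to 18.2 normalized counts in the LBR-null libraries and at 17.3 and 11.8 in the WT libraries. The libraries overlapped, although the 3 LBR-null mouse means (6.88 to 11.9) were below the WT mean of 14.5, and the highest value came from mouse 4007, whose other library had the lowest. The log2 fold change of Lep was -0.62 (95% interval -2.001 to 0.761; limma, adjusted p = 0.608), so these few reads leave room for a difference in either direction.

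Genes for lipid droplet proteins stood on opposite sides of the WT level. Plin1 (perilipin 1, the coat protein that guards the droplet of adipocytes against lipases; chr7:86866050-86877662, minus strand) was at 6.89 and 17.7 normalized counts in mouse 4001, 4.30 in mouse 4002, and 4.66 and 5.47 in mouse 4007. The WT libraries had 90.6 and 72.4. All LBR-null libraries were lower, with means of 7.23 ± 4.43 (SD, n = 3) and 81.5 and a log2 fold change of -3.45 (SE 0.69; limma, adjusted p = 0.103). Cidec (a protein of droplet contact sites that fuses small droplets into larger ones; chr6:113374628-113385754, minus strand) was at 56.3 and 58.6 in mouse 4001, 15.5 in mouse 4002, and 14.0 and 21.0 in mouse 4007, against 219.7 and 222.5 in the WT libraries. The libraries of the genotypes did not overlap here either, and the WT level was 7.34 times the LBR-null mean of 30.1 ± 23.7 (SD, n = 3). Its log2 fold change was -3.09 (SE 0.77; limma, adjusted p = 0.119).

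Plin4 (perilipin 4, which coats small nascent droplets; chr17:56240014-56249225, minus strand) was the member with the opposite pattern. It was at 784 and 809 normalized counts in mouse 4001, 508 in mouse 4002, and 536 and 598 in mouse 4007, against 107 and 119 in the WT libraries. Every LBR-null library lay above both WT libraries, and the LBR-null mean of 624 ± 153 (SD, n = 3) was 5.53 times the WT level of 113. The log2 fold change was 2.43 (SE 0.33; 95% interval 1.63 to 3.23; limma, adjusted p = 0.0795). The annotated exons of Plin4 share 6 bases with Hdgfrp2 on the other strand, whose log2 fold change was 0.00 (SE 0.31), and no source used here says whether strand was used in counting. In the 5-gene perilipin family, a list added after the values were seen, Plin2 (the perilipin of most non-adipocyte droplets) was at 779 ± 208 against 1846 and Plin5 (the perilipin of oxidative tissues) at 207 ± 119 against 90.4. Plin3, the highest of the family by normalized count, was at 2439 ± 419 against 1984. Of the 5, 2 had every LBR-null library below the WT libraries, against 25.7% of all genes tested, and 3 had every one above, against 25.5%.

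Ucp1 (the thermogenic proton channel that defines brown and beige adipocytes; chr8:85814247-85822355, plus strand) had the lowest log2 fold change of the members. It was at 54.0 and 51.5 normalized counts in mouse 4001, 9.46 in mouse 4002, and 7.45 and 16.4 in mouse 4007, against 376.4 and 373.6 in the WT libraries. No LBR-null library reached a WT library, and the WT level was 15.2 times the LBR-null mean of 24.7 ± 24.3 (SD, n = 3). The log2 fold change was -4.28 (SE 0.93; 95% interval -6.52 to -2.04; limma, adjusted p = 0.110), the 20th lowest of 17283 genes tested. Cfd ranked 24th, Adipoq 47th, Plin1 57th and Cidec 81st from the lowest, and Plin4 375th from the highest.

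The libraries of the remaining members overlapped between genotypes. Fabp4 (the cytosolic fatty acid carrier of adipocytes, capillary endothelium and macrophages; chr3:10204347-10208576, minus strand) was the most abundant member, at 8566 and 6542 normalized counts in mouse 4001, 6654 in mouse 4002, and 5293 and 5002 in mouse 4007, against 4954 and 5042. The means of all 3 LBR-null mice, 5147 to 7554, were above the WT mean of 4998. Its log2 fold change was 0.35 (95% interval -0.41 to 1.11; limma, adjusted p = 0.599). Pparg (the regulator PPARγ; chr6:115311239-115440419, plus strand) was at 150.4 to 186.6 in the LBR-null libraries and at 162.2 and 198.1 in the WT libraries. The difference in Pparg was -0.13 on the log2 scale (95% interval -0.89 to 0.63; limma, adjusted p = 0.863). Lipe (hormone-sensitive lipase, which cleaves diglyceride during lipolysis; chr7:26164546-26183729, minus strand) was at 318 to 484 and at 407 and 414, with a log2 fold change of -0.06 (95% interval -0.74 to 0.62; limma, adjusted p = 0.940). These intervals still hold differences of a size that 4 mice cannot resolve. Lipe shares 264 exon bases with 4732471J01Rik on the other strand, which was at 62.9 ± 5.13 normalized counts against 28.8 (log2 fold change 1.10; limma, adjusted p = 0.208).

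**Figure D1:**
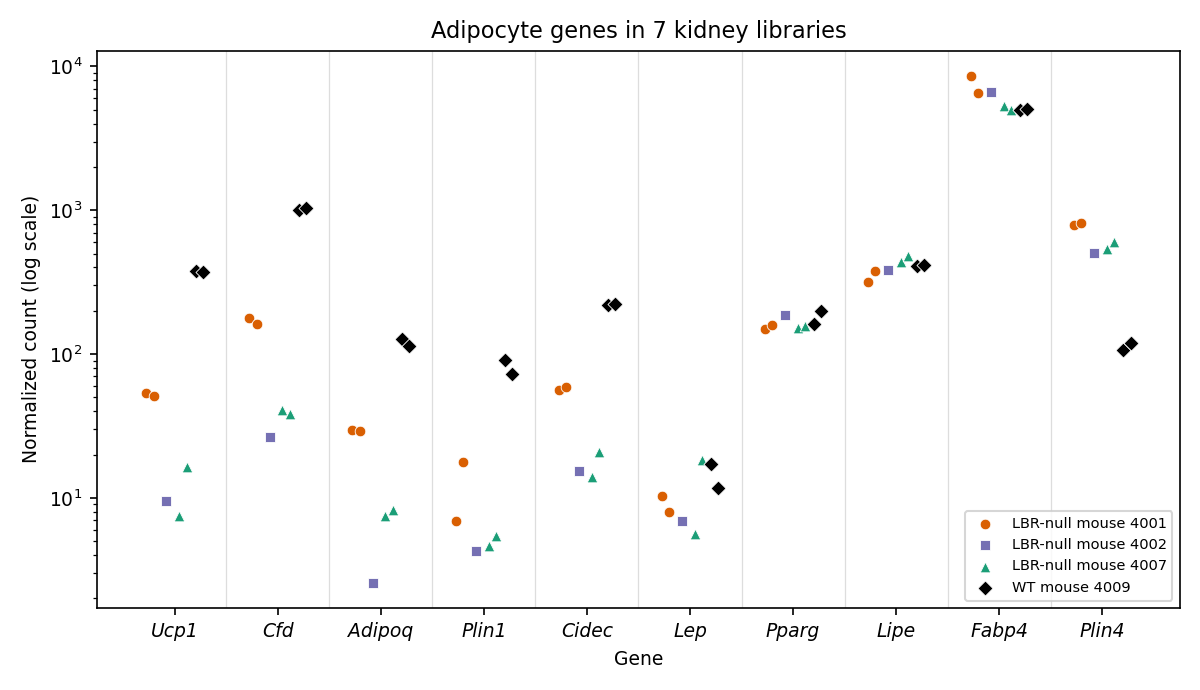
Normalized counts of the 10 adipocyte genes in each of the 7 kidney libraries (vertical axis, log scale), by mouse; each point is a library. Ucp1, Cfd, Adipoq, Plin1 and Cidec lie below both WT libraries (black diamonds) in all 5 LBR-null libraries, Plin4 lies above them, and the other 4 genes overlap.

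The count of members depended on the test. The limma fits that leave out an LBR-null mouse have 1 residual degree of freedom. At an unadjusted limma p under 0.05, 5 members were lower, against 8.05% of all genes tested, and 1 was higher, against 10.7%. edgeR (quasi-likelihood test on recovered reads) called 0.224% of genes and no member, with adjusted p-values of 0.0698 for Plin4, 0.0863 for Plin1, 0.107 for Ucp1, 0.117 for Cfd, 0.124 for Cidec and 0.149 for Adipoq. DESeq2 on the same reads called 4 members lower, against 3.55% of genes, with adjusted p-values of 0.000156 for Ucp1, 0.00102 for Plin1, 0.00443 for Cidec and 0.0284 for Adipoq; for Cfd it was 0.106. DESeq2 called Plin4 higher (adjusted p = 2.81e-07), against 3.05% of genes. Leaving out mouse 4001, limma called all 5 lower, against 3.83% of genes, with adjusted p-values of 0.00396 (Cfd) to 0.0184 (Adipoq), and Plin4 higher (0.00733), against 2.94%. Without mouse 4002 it called Plin1, Cfd and Ucp1 lower, against 1.66% of genes, and Plin4 higher, against 1.96%. Without mouse 4007 it called 0% of genes and no member.

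By fold alone, 5 members had a mean at least 2-fold lower in LBR-null kidney, against 8.8% of genes above 0 in either genotype, and 1 had a mean at least 2-fold higher, against 22.7%. By libraries, 5 members had every LBR-null library below both WT libraries, against 25.7% of genes tested, and 1 had every one above, against 25.5%. With 3 mice against 1, an exact one-sided permutation test of a single gene cannot give a p below 0.25, and libraries of a mouse share its kidney, so the limma, edgeR and DESeq2 values rest on a spread estimated across genes from 3 LBR-null mice.

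**Figure D2:**
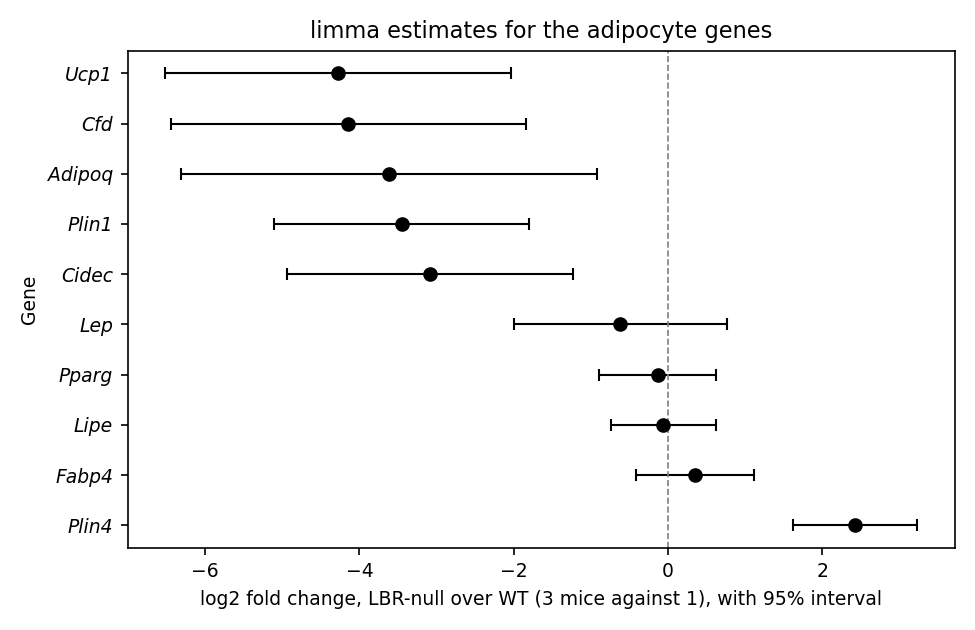
limma log2 fold change of each adipocyte gene, 3 LBR-null mice against 1 WT mouse (horizontal axis), with bars for the 95% interval. The intervals of Ucp1, Cfd, Adipoq, Plin1 and Cidec lie below 0 and that of Plin4 above it before adjustment for 17283 genes, and the intervals of Lep, Pparg, Lipe and Fabp4 contain 0.

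The shares of the WT level at which the 5 lower genes stood differed within and between mice. In mouse 4001 they were at 14.1% (Ucp1) to 25.97% (Cidec) of the WT level, with Plin1 at 15.1%, Cfd at 16.6% and Adipoq at 24.6%. In mouse 4002 they were at 2.14% (Adipoq) to 6.999% (Cidec), and in mouse 4007 at 3.18% (Ucp1) to 7.90% (Cidec). The highest share was 1.85, 3.26 and 2.48 times the lowest in mice 4001, 4002 and 4007. Each of the 5 genes was highest in mouse 4001 among the LBR-null mice, and Cidec had the highest share of the 5 in all 3 mice. The ratio of Cidec reads to Adipoq reads was 1.885 and 2 in mouse 4001 and 1.72 and 1.97 in the WT mouse. It was 1.875 and 2.56 in mouse 4007, and 6 in mouse 4002 on 3 Adipoq reads. Plin4 had 26.3 and 27.6 reads per Adipoq read in mouse 4001, 197 in mouse 4002, 71.9 and 72.9 in mouse 4007, and 0.840 and 1.05 in the WT mouse. In bulk kidney RNA, fewer adipocytes and less RNA per adipocyte cannot be told apart.

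Compared per kilobase of annotated exon, Fabp4 had the highest level in both genotypes, at 7846 normalized counts per kilobase in the WT mouse and 10128 in the LBR-null mean. Cfd followed in the WT mouse at 1100, then Ucp1 at 228 and Cidec at 119. Lipe (90.9), Pparg (90.8) and Adipoq (87.1) were close together, and Plin1 (42.5), Plin4 (19.6) and Lep (4.34) were the lowest. In the LBR-null mean the order after Fabp4 was Plin4 at 108 per kilobase, Lipe at 88.0, Cfd at 84.9 and Pparg at 83.2. Cidec (16.2), Ucp1 (15.0), Adipoq (9.65), Plin1 (3.77) and Lep (2.78) came last. Neighbours such as Lipe, Cfd and Pparg, or Cidec and Ucp1, differed by less than the SD between LBR-null mice, as did Plin4 and Lipe. Plin4 was the last but one in the WT mouse and the third in each LBR-null mouse. Summed over the 10 members, the level per mouse was 9184, 7798 and 6421 normalized counts in mice 4001, 4002 and 4007 and 7529 in the WT mouse, a ratio of 1.04 ± 0.18 (SD, n = 3). Fabp4 made up 78.8% to 85.3% of that sum in the LBR-null libraries and 66.4% in both WT libraries, and without Fabp4, a choice made after the values were seen, the ratio was 0.533.

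The genes whose profile over the 7 libraries was most like that of Adipoq included 4 members. Likeness was the mean absolute difference of log2(normalized count + 1) profiles, each centred on its own mean, over 14636 genes with a mean of at least 20. Cfd (0.339) came first and Cidec (0.343) second, followed by Cidea (0.386), a droplet protein of brown fat, and Plin1 (0.414). Next came Ckap2 (0.431), a spindle protein, Car3 (0.463), a carbonic anhydrase abundant in adipocytes and muscle, and Cdkn3 (0.472), a phosphatase of cyclin-dependent kinases. Ucp1 (0.475), Cenpf (0.505), a kinetochore protein, and Ifi27l2a (0.522), an interferon-induced gene, completed the first 10. Fabp4 stood at position 6523, Pparg at 6864, Lipe at 9785 and Plin4 at 14445. These positions describe 7 libraries of 4 mice and carry no test. Plin1 (LBR-null mean 7.23 against 81.5), Ckap2 (11.2 against 111), Cdkn3 (5.40 against 73.4) and Cenpf (17.6 against 222) reached a mean of 20 only through the WT mouse. Adipoq itself did so as well (13.3 against 120), so these places partly restate a high WT level and support no direction.

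Other genes of adipocytes were mixed. In a list of 22 further adipocyte genes, all tested, the median log2 fold change was -0.57 ± 0.06 (SD over LBR-null mice, n = 3), against 0.01 over all genes tested and -1.85 ± 0.55 over the 10 members. No member lay between Cidec (-3.09) and Lep (-0.62). With a filter at a mean of 20 the members' median was -3.09. That filter leaves out Lep, and Adipoq and Plin1 passed it only through the WT mouse, so that value supports no direction. Here and for the lists below, the SD is that of the 3 per-mouse medians (-0.44, -0.55 and -0.54 for the 22 genes). The median itself uses log2 fold changes averaged over mice, so the per-mouse medians need not centre on it. Of the 22 genes, 11 had every LBR-null library below both WT libraries, against 25.7% of all genes tested, and 4 had every one above, against 25.5%. limma called none of them, and DESeq2 called 4 lower, against 3.55% of genes, and 3 higher, against 3.05%. Cidea was at 78.5, 7.74 and 10.1 normalized counts in mice 4001, 4002 and 4007 against 271 in the WT mouse, and Adig (adipogenin, an adipocyte membrane protein) at 21.2, 4.30 and 5.56 against 42.5. The log2 fold changes were -3.78 (SE 1.21) for Cidea and -2.25 (SE 0.88) for Adig. Scd1, the stearoyl-CoA desaturase, was at 516 ± 290 against 1997 (log2 fold change -2.09, SE 0.54). Pck1, the gluconeogenic enzyme PEPCK, which kidney tubules make in quantity, had the highest level and was at 125085 ± 55001 against 39117 (log2 fold change 1.59, SE 0.70).

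The list of brown adipocyte genes, which holds Ucp1 and Cidea too, was mixed. Of 15 listed genes 13 were tested, and their median was -0.46 ± 0.54 (log2 fold change, SD over 3 mice), but -0.12 with no filter and -0.13 without mouse 4007. The per-mouse medians were 0.42, -0.60 and -0.39 in mice 4001, 4002 and 4007. Of the 13, 3 (Ucp1, Cidea and Dio2) had every LBR-null library below the WT libraries and 4 had every one above, near the shares of 25.7% and 25.5% over all genes tested. DESeq2 called 2 in each direction, against 3.55% of genes lower and 3.05% higher. Zic1, a transcription factor of dorsal brown fat precursors, was at 22.2, 20.6 and 27.2 normalized counts in the LBR-null mice and 3.44 in the WT mouse. Zic1 passed the filter only through the LBR-null mice, so its place among the genes above and among the DESeq2 calls supports no direction of the list. Otop1, of the same list, was at 3.31 ± 2.34 against 11.9 and passed the filter only through the WT mouse, so the list's median supports no direction either. Kng2, a kininogen, had the highest level, at 20568 ± 6471 against 9238. Cox8b, a cytochrome oxidase subunit of brown fat and striated muscle, was at 863 in mouse 4001, 17.2 and 16.1 in mice 4002 and 4007, and 164 in the WT mouse. In a list of striated muscle genes added after this was seen, Mb (myoglobin) was at 13964 in mouse 4001 against 187, 242 and 147, and Ckmt2 (mitochondrial creatine kinase of muscle) at 2136 against 30.1, 44.6 and 19.9. Myh4, a fast myosin, was at 9.16, 10.3 and 17.98 against 0.394, a WT value that rests on 1 read. Pvalb (parvalbumin), which kidney tubules also make, was at 83.9 ± 49.5 against 539 (DESeq2, adjusted p = 0.000388; limma, adjusted p = 0.107, not called). The summed level of the 14 muscle genes was 521 to 19558 in the LBR-null libraries and 768 to 1006 in the WT libraries. The median log2 fold change of the 12 tested, 0.96 ± 0.99 (SD over 3 mice) and 0.53 without mouse 4001, supports no direction, since Myh4 passed the filter only through the LBR-null mice. Among the kidney genes, the podocyte gene Nphs1 was at 342 in mouse 4001 against 1252 and 1175 in mice 4002 and 4007, and the WT mouse had 1391. Without mouse 4001 all 5 lower members had lower log2 fold changes and Plin4 stayed higher at 2.24, against the same single WT mouse. The part of the muscle, Cox8b and Nphs1 differences in the adipocyte results was not tested.

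**Figure D3:**
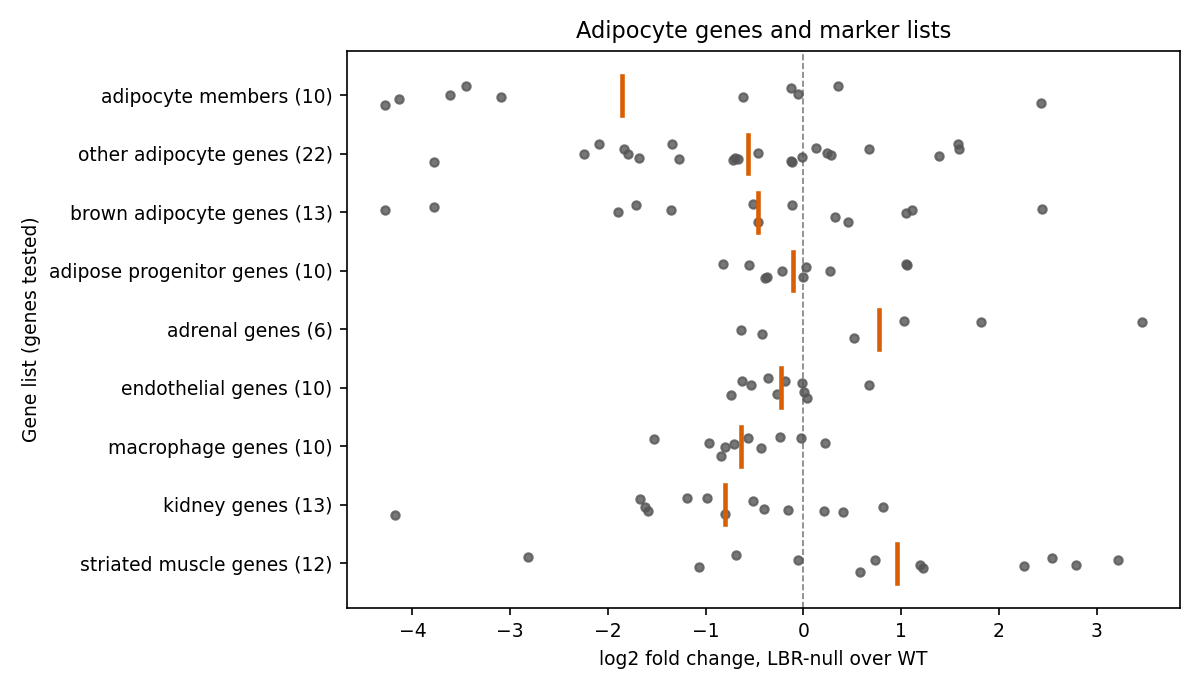
limma log2 fold changes (horizontal axis, LBR-null over WT) of the tested genes of each marker list; each point is a gene, the orange bar is the list's median, and the vertical scatter within a list has no meaning. The adipocyte members have the lowest median, -1.85, with 5 genes below -3 and Plin4 at 2.43.

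Lists for other cells of perirenal tissue and kidney were read beside the members. The 10 adipose progenitor genes, all tested, had a median of -0.11 ± 0.21 (log2 fold change, SD over 3 mice), or -0.23 without mouse 4001, with 3 below and 2 above in every library, against 25.7% and 25.5% of all genes tested; their summed level was 13692 to 20628 normalized counts in the LBR-null libraries and 13566 to 13785 in the WT libraries. Fmo2, a flavin monooxygenase, was the highest of them at 7991 ± 3433 against 3563, Ebf2, a regulator of brown fat precursors, was at 45.8 ± 22.2 against 20.0, and Dlk1, a preadipocyte factor, at 49.9 ± 29.4 against 78.9. Of 14 adrenal genes only 6 passed the filter. Since Hsd3b1 and Cyp21a1 passed it only through the LBR-null mice, where they were higher, the median log2 fold change of 0.77 over these 6 supports no direction; it was 0.50 with no filter and -0.06 with a filter at a mean of 20. The list summed to 319 to 636 normalized counts in LBR-null and 526 to 538 in WT libraries. The steroid 11-hydroxylases Cyp11b1 and Cyp11b2 and tyrosine hydroxylase Th, which define the adrenal cortex and medulla, were listed at 0 in the WT mouse and had mouse means of at most 1.72 in LBR-null mice. The highest adrenal gene was Akr1b7, an aldose reductase relative, at 263 ± 104 against 387, and Hsd3b1, a steroid dehydrogenase, was at 15.4 ± 4.45 against 0.452, a WT value that rests on 1 read. The steroid 21-hydroxylase Cyp21a1 was at 11.7 ± 7.63 against 2.14 and the ACTH receptor Mc2r at 18.4 ± 6.35 against 8.18. Star, the cholesterol carrier of steroid synthesis, was at 175 ± 27.6 against 121, and Dbh, dopamine beta-hydroxylase, at 9.53, 2.58 and 1.83 in mice 4001, 4002 and 4007 against 0.787. The part of adrenal RNA in the adipocyte results was not tested.

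Endothelial and macrophage genes bear on Fabp4, which both cell types use. The 10 endothelial genes had a median of -0.23 ± 0.17 (log2 fold change, SD over 3 mice), which was -0.0096 without mouse 4001, and summed to 26433 to 35265 normalized counts in LBR-null and 36834 to 37562 in WT libraries; 3 were below and 1 was above in every library, against 25.7% and 25.5% of all genes tested. Plvap, of fenestrated capillaries, was the highest at 7469 ± 1829 against 9395. Eng (endoglin) was at 3656 ± 975 against 5973, Flt1, a VEGF receptor, at 2099 ± 84.8 against 1322, and Ehd3, of glomerular endothelium, at 492 in mouse 4001 against 2134 and 1970 in the other LBR-null mice and 1972 in the WT mouse. The 10 macrophage genes had a median of -0.64 ± 0.14 (SD, n = 3), with 7 below and 1 above in every library, against the same shares of all genes, and sums of 4267 to 4667 against 5599 to 5644. Csf1r, the macrophage growth factor receptor, was the highest at 1190 ± 112 against 1609, and the complement genes C1qb and C1qc and the Fc receptor gene Fcgr1 had the largest differences, at 305 ± 51.8 against 544, 282 ± 51.6 against 546 and 25.1 ± 6.93 against 72.4.

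More kidney genes were below the WT libraries than above them. The per-mouse medians of their log2 fold changes were -0.44, -0.55 and -0.91 in mice 4001, 4002 and 4007. Over the list the median was -0.80 ± 0.24 (log2 fold change, SD over 3 mice), with 8 of 13 below and 1 above in every library, against 25.7% and 25.5% of all genes tested, and DESeq2 called 3 lower (Slc34a1, Lrp2 and Miox), against 3.55% of genes. Miox (myo-inositol oxygenase of the proximal tubule) was at 2248, 7593 and 2603 normalized counts in mice 4001, 4002 and 4007 against 64152 in the WT mouse (log2 fold change -4.18, SE 0.68), and Slc34a1 (the phosphate transporter of the same segment) was at 21038 ± 7499 against 64099. Kap, an androgen-regulated protein of the proximal tubule, was the highest at 131041 ± 73361 against 357146. The part of these tubule differences, and of the differing Xist and Ddx3y levels, in the adipocyte results was not tested. In mouse 4002, whose Ddx3y level was near that of the WT mouse, Adipoq, Cfd, Plin1, Cidec and Ucp1 were all at 6.999% of the WT level or less. Those values come from 1 library, with 3 Adipoq reads, set against 1 WT mouse, and they test no part of these differences.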

How the data were processed

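RNA-seq libraries (poly(A), 150 bp paired-end) came from 3 LBR-null mice (5 libraries) and 1 WT mouse (2 libraries), grouped by their labels. Per the submitters' processing notes and methods, STAR 2.6.0 and the mm9 build were used for alignment, and the authors deposited a signal per gene symbol, the read count divided by a DESeq2 1.25.1 size factor; the read counter and gene annotation are not given in the sources used here. All values (100%) were whole multiples of 1 read within 0.01 read, so reads were recovered. Libraries were averaged within a mouse. limma 3.58.1 (eBayes with trend; R 4.3.3) was fitted to log2(normalized count + 1) of the 17283 genes whose mean over mice reached 5, which understates changes of low genes, with Benjamini-Hochberg adjustment over all of them; a call needed an adjusted p under 0.05 and a 2-fold change. The fit has 2 residual degrees of freedom and assumes that the lone WT mouse varies like the LBR-null mice, so p-values measure the spread between these mice. Leaving out an LBR-null mouse leaves 1 residual degree of freedom, so those fits rest on the spread between 2 LBR-null mice. edgeR 4.0.16 and DESeq2 1.42.0 were run on recovered reads summed per mouse. Further alternatives were pseudocounts of 0.5 and 5, filters of none and 20, equal totals or TMM scaling, 1 library per mouse, leaving out each LBR-null mouse, and a replicate block.

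The members and lists were chosen with earlier results of these data known, and the muscle and perilipin lists after their values were seen. From each other list the gene with the highest level and those with the largest absolute log2 fold changes were named, 4 at most. Otop1, Cox8b, Nphs1, Plin5, Cyp11b1, Cyp11b2, Th, Star, Dbh, Lrp2 and the 6 genes of the closing observations were named after their values were seen. The limma, edgeR and DESeq2 fits of 3 mice against 1 were also run on simulated counts, and that outcome is not given here or used for any call. Coordinates and exon lengths are from GENCODE gene models on mm9, promoters from RefSeq on GRCm38.p6.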

Additional observations from a re-analysis of the deposited data

Results flagged for a closer look

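Among the 5 LBR-null libraries, 1 library lay far from the others for 2 of the 11 measures tested (the 10 members and their sum), where chance flags about 1 in 20 and libraries of a mouse are not independent. Plin1 was at 17.7 normalized counts in the second library of mouse 4001, against 4.30 to 6.89 in the other 4. Pparg was at 186.6 in the library of mouse 4002, against 150.4 to 158.8 in the other 4.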

How the results depend on the processing

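limma on mouse means called 0 genes. The number called higher and lower was 1 and 40 with edgeR, 528 and 614 with DESeq2, 1 higher in the second library of each mouse, and between 0 and 505 higher and 0 and 658 lower when each LBR-null mouse was left out (505 and 658 without mouse 4001, 338 and 287 without mouse 4002). With the 6 libraries of the 3 mice that had 2 each, without mouse 4002 and with a correlation within mice, the replicate block (library number) gave 591 higher and 722 lower, and no replicate block gave 672 and 815; library numbers only name the libraries, since deviations of same-numbered libraries correlated at -0.016, -0.0049 and -0.042 over genes. Of the adipocyte genes, 1 was called higher and 4 lower with DESeq2, 1 and 5 with the replicate block, 1 and 5 with no replicate block, and between 0 and 1 higher and 0 and 5 lower when each mouse was left out (1 and 5 without mouse 4001, 1 and 3 without mouse 4002). The cause of these differences in calls was not tested. Ranges over all fits of adjusted p were 0.0184 to 0.350 for Adipoq, 0.00102 to 0.269 for Plin1, 2.81e-07 to 0.229 for Plin4, 0.00287 to 0.259 for Cfd, 0.00443 to 0.311 for Cidec and 0.000156 to 0.255 for Ucp1, and their directions held in all 15 alternatives. Lipe turned to 0.033 without mouse 4001. The summed level of the members became 0.533 times WT without Fabp4. The counts of members 2-fold lower (5) and 2-fold higher (1) stayed within 1.5 times in 7 alternatives. The median shift of all genes was 0.007, 0.001 and -0.022 under the deposited scaling, equal totals and TMM. At this depth Lep and, in LBR-null mice, Adipoq and Plin1 rest on few reads, and 1 WT mouse limits every comparison.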

Other observations

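Further genes of fat metabolism, chosen for description after their values were seen, also differed in both directions. The lipid synthesis genes Fasn (fatty acid synthase) and Gpd1 (glycerol-3-phosphate dehydrogenase) were at 826 ± 147 and 2290 ± 442 normalized counts (SD, n = 3) in LBR-null kidney against 2834 and 7245 in the WT mouse, and DESeq2, which called 3.55% of all genes lower and 3.05% higher, called both lower (adjusted p = 1.86e-05 and 0.00013). Pnpla2, the adipose triglyceride lipase, was at 8001 ± 1600 against 3023 and Acsl1, an acyl-CoA synthetase, at 17700 ± 9386 against 5379, and DESeq2 called both higher (adjusted p = 0.00515 and 0.0355). Dio2, the deiodinase that activates thyroid hormone in brown fat, was at 27.1 ± 4.17 against 103 (DESeq2 adjusted p = 0.00669). Ppargc1a, a coactivator of mitochondrial genes, was at 4465 ± 847 against 2135 (DESeq2 adjusted p = 0.0483). limma called none of these 6 genes, with adjusted p-values of 0.0897 for Fasn, 0.0938 for Gpd1, 0.115 for Pnpla2, 0.213 for Acsl1, 0.114 for Dio2 and 0.140 for Ppargc1a. Kidney tubules use several of these genes as well, and the part of tubule cells in these values was not tested.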
